A study of Mus musculus with 18 samples.

Results

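Ribosomal proteins build the large and small subunits of the ribosome, and their transcripts are among the most abundant mRNAs of most cells. Here the peaks of Argonaute 2 (Ago2) binding on these transcripts were described in colonic epithelium of mice with oncogenic K-Ras and of mice with wild-type K-Ras. Members were all merged peaks whose gene label begins with Rpl or Rps and a digit, or is Rplp0, Rplp1, Rplp2 or Rpsa, without the Rps6k kinases. The rule found 18 peaks on 15 gene labels among 5554 merged peaks, of which 5448 carry an annotation. The rule uses gene labels only.

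The libraries came from HEAP, a form of CLIP-seq in which a Halo-tagged Ago2 is crosslinked to its RNA by UV light, captured on a resin and digested, after which the bound miRNAs and RNA fragments are sequenced. The G12D group was Halo-Ago2/+; Fabp-Cre/+; K-Ras-G12D/+, and the WT group was Halo-Ago2/+; Fabp-Cre/+ with K-Ras-WT, so both carried the tagged Ago2 and the Cre. All were C57BL/6 mice aged 8 to 12 weeks, and the epithelium, scraped off the distal colon, received 3 UV exposures of 400 mJ per square centimetre. Of 18 libraries in 6 groups of 3, the pulldown mRNA and miRNA libraries were used; input controls were not analysed here. A change in a peak therefore cannot be told apart from a change in the level of its transcript, and fewer cells of a type cannot be told apart from less RNA per cell. K-Ras-G12D is an activating form of the GTPase K-Ras, the Cre is limited to the cells in which the Fabp promoter is active, and scraped tissue can hold other cells. Whether the libraries of a group are from separate mice is not stated in the labels. The p-values therefore measure the spread among the libraries at hand, which may be technical.

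Ago2 is the protein that carries miRNAs. A loaded miRNA pairs through its seed, the bases near its 5′ end, with complementary sites that lie mostly in the 3′ UTRs of mRNAs, and the bound mRNA is then translated less or degraded. Mouse ribosomal protein mRNAs are short and highly translated, begin with a pyrimidine-rich stretch called the TOP motif, and are translated together under control of the mTOR pathway. Several ribosomal protein genes also host small nucleolar RNAs (snoRNAs), which guide the modification of ribosomal RNA, in their introns.

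The authors' peak annotation lists, for each peak, the miRNA families whose seeds match it. Bases 2 to 8 of 7 families were matched in 7 of the 18 peaks. A mature miRNA of each family is shown, because the seed is what the annotation matches; the letters come from RefSeq, GRCm38.p6, and capitals mark bases 2 to 8.
let-7b-5p: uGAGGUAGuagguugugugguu
miR-194-5p: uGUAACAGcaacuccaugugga
miR-16-5p: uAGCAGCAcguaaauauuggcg
miR-29a-3p: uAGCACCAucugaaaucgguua
miR-24-3p: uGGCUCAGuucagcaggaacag
miR-200c-3p: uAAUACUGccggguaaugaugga
miR-200a-3p: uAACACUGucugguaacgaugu
miR-16-5p and miR-29a-3p begin alike but differ within the seed, as do miR-200c-3p and miR-200a-3p, so each pair belongs to separate families. The let-7 family was matched in Rps13, miR-194-5p in Rps27l and in the peak labelled Rps18, and the family of miR-16-5p in the 3′ UTR peak of Rpl14. The miR-29 family was matched in the peak labelled Rps18, miR-24-3p in Rpl6, the family of miR-200c-3p in Rps20, and the family of miR-200a-3p in Rps12.

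The let-7 match of Rps13 is the only one of these sites for which sequence could be read here, because its peak lies within a RefSeq promoter window. The site is at chr7:116334127-116334156 on the minus strand (GRCm38.p6), and capitals mark the bases complementary to bases 2 to 8 of let-7.
Rps13 site: tgtgccgtttcCTACCTCgttctctctttg
The letters CTACCTC occurred 1 time in the peak, from its 17th base, at chr7:116334139-116334145. Of the 54 letters of the peak 42 were C or T (77.8%). The peak begins 29 bases past the RefSeq start of the gene, so it does not include the first bases of the transcript. Searched on both strands, CTACCTC was present in 1265 of 32851 promoter windows of 300 bases (3.85%), a longer window than the peak. A match is a description of letters and does not show a site in use.

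**Figure D1:**
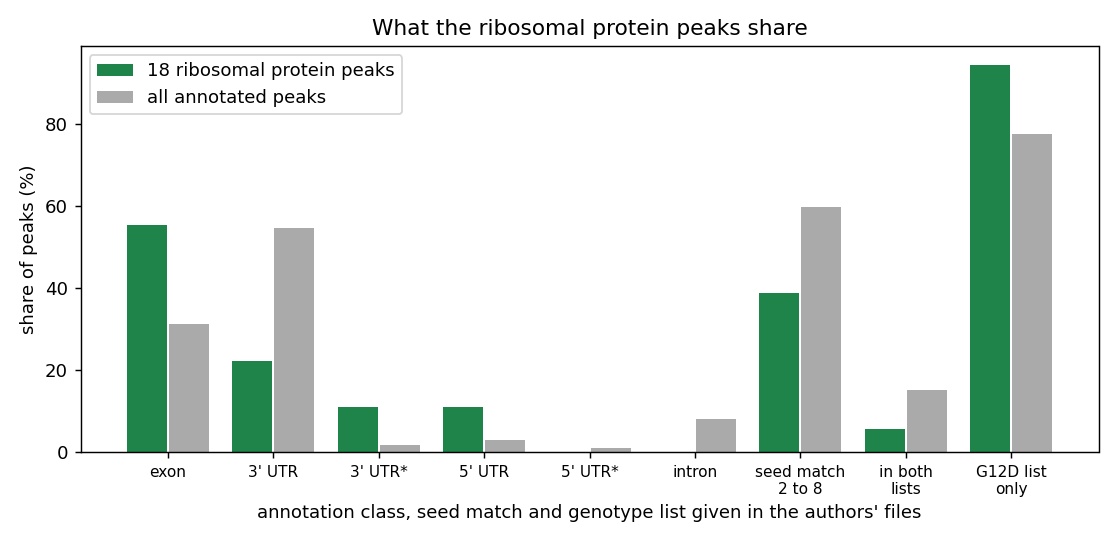
Share of the 18 ribosomal protein peaks (green) and of all 5448 annotated peaks (grey) in each annotation class, with a seed match to bases 2 to 8 of a listed miRNA family, and in each genotype list. Of the ribosomal protein peaks 55.6% were exonic, against 31.4% of annotated peaks, and 22.2% were in the 3′ UTR, against 54.7%; these are counts without a test.

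The ribosomal protein peaks lay mostly in exons. Of the 18, 10 were annotated as exon (55.6%, against 31.4% of all annotated peaks), 4 as 3′ UTR (22.2% against 54.7%), 2 as 3′ UTR with an asterisk that the file headers do not explain (11.1% against 1.71%) and 2 as 5′ UTR (11.1% against 3.03%). None was intronic, against 8.13% of all annotated peaks. A match to bases 2 to 8 of a miRNA family was listed for 7 of 18 (38.9%), against 3255 of 5448 (59.7%), and 5 of 18 (27.8%) had no listed match of any kind, against 13.3%. Peak width was 50 to 112 bases with a median of 55.5, against a median of 56 over all annotated peaks. The bar chart of annotation classes shows these shares side by side, and no test was made of them.

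The authors called peaks in a list for each genotype. Of the ribosomal protein peaks 17 of 18 were in the G12D list only (94.4%, against 77.6% of annotated peaks), 1 was in both lists (against 15.1%) and 0 were in the WT list only (against 7.36%). The single peak in both lists was that of Rps27l. The G12D pulldown libraries were deeper, which moves with this split: they held 148927, 723937 and 247358 reads in merged peaks, against 100978, 54401 and 148770 in WT libraries. Its part in the calling of peaks was not tested.

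Few of the genes that could carry a peak did so. By the same name rule RefSeq lists 91 protein-coding genes, of which 14 had a peak (15.4%), and 309 pseudogenes, of which 1 had a peak, while 2322 of 21900 protein-coding genes of any kind had one (10.6%). No peak carried Rplp0, Rplp1, Rplp2 or Rpsa, the acidic stalk proteins and the laminin-binding small subunit protein, as its whole label. Members of the large and the small subunit were present in like numbers, with 8 peaks on 6 genes of the large subunit and 7 peaks on 6 genes of the small subunit. The other 3 peaks were on the paralogs Rps27l and Rpl7l1 and on the pseudogene Rpl14-ps1.

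**Figure D2:**
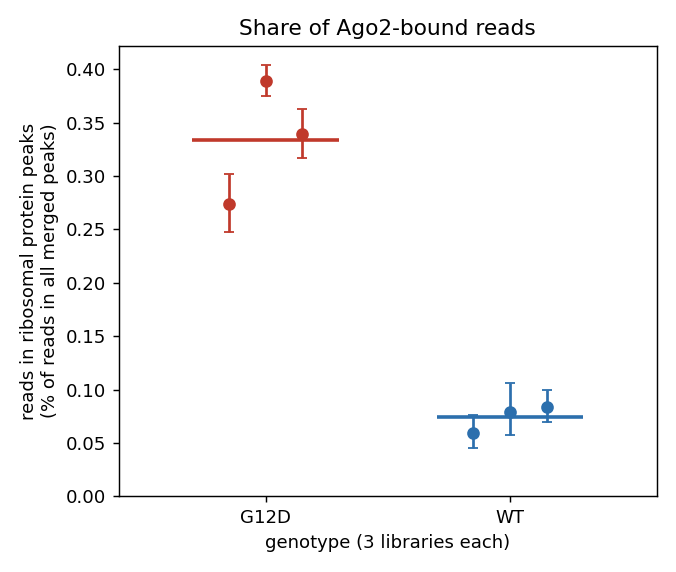
Reads in the 18 ribosomal protein peaks as a share of the reads in all merged peaks (y axis, percent), for the 3 G12D and the 3 WT libraries (x axis); points are libraries with exact binomial 95% intervals and lines are group means. The G12D libraries lie at 0.274% to 0.389%, all above the WT libraries at 0.0594% to 0.0834%. Of the 18 peaks 17 were in the G12D list only.

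Ago2-bound reads on ribosomal protein transcripts took a small share of each library and a larger one in G12D. The share was 0.274% (95% interval 0.248 to 0.302), 0.389% (0.375 to 0.404) and 0.339% (0.317 to 0.363) in G12D libraries 1 to 3. In WT libraries 1 to 3 it was 0.0594% (0.0453 to 0.0765), 0.0790% (0.0572 to 0.106) and 0.0834% (0.0693 to 0.0994). The intervals, exact binomial, cover counting error only, and those of the G12D libraries do not meet those of the WT libraries. The mean was 0.334% ± 0.0579 in G12D and 0.0739% ± 0.0128 in WT (SD, n = 3 each), and no p is given for a sum over chosen members. The plot of this share by library shows the gap. Of the 18 peaks summed 17 were in the G12D list only, so the sum is mostly over peaks called in G12D. Among peaks in both lists, where only Rps27l is a member, the difference of G12D from WT was −0.0072 percentage points.

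The sum rests largely on Rps12 and the exon peak of Rpl14. Normalized reads, the authors' reads per peak divided by 1 factor per library, summed over the 18 peaks to 445, 582 and 603 in G12D and to 127, 125 and 160 in WT. Rps12 and the Rpl14 exon peak together held 48.8%, 54.6% and 58.9% of this sum in G12D libraries, against 25.0%, 16.3% and 4.84% in WT libraries. The other 16 peaks summed to 228, 264 and 248 in G12D and to 95.5, 104 and 152 in WT, or 247 ± 18.2 and 117 ± 30.4 (SD, n = 3 each). These sums do not overlap between the genotypes either. All of the 16 but Rps27l were in the G12D list only, so this sum too is mostly over peaks called in G12D. The ratio of the means was 3.96 with all 18 peaks and 2.10 with those 16.

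Each peak was then compared between the genotypes with limma on log2(normalized reads + 1), with Benjamini-Hochberg adjustment over all 4438 merged peaks that averaged 5 or more normalized reads, and a threshold of 0.05. Of the 18 peaks 14 could be tested. In G12D 8 rose, 0 fell and 6 did not pass, where 48.9% of all tested peaks were called, 36.2% as higher and 12.7% as lower. At an unadjusted p under 0.05 limma had 9 higher and 0 lower, and the share of all tested peaks at that p was not counted. After adjustment edgeR and DESeq2 each called 7 higher and 1 lower, Rps27l. Of all 4438 tested peaks edgeR called 1093 higher and 894 lower, and DESeq2 called 1130 higher and 771 lower. The median log2 fold change of the 14 was 2.17, against 1.05 over all tested peaks. It was 2.12 with the 3 tested peaks that had 0 WT reads set to the lowest fold that a floor of 3 counts gives. Those 3 peaks stay above the median at that fold too, so the median could move little. In 9 of the 14 all G12D libraries lay above all WT libraries and in 1 of the 14 all lay below, against 43.9% and 15.2% of all tested peaks. The filter on low values lets a peak pass through the group in which it is high, and the 4 untested peaks had at most 1 read over all WT libraries. Leaving out Rps12, the peak labelled Rps18, the paralogs and the pseudogene, 6 of 10 tested peaks rose and 0 fell, against the same 36.2% and 12.7%.

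Because 17 of the 18 were in the G12D list only, the peaks of that list are the nearer comparison. Of the 13 tested members in that list 8 rose, with a median log2 fold change of 2.37. Over all 3137 tested peaks of that list 1470 rose (46.9%), with a median of 1.67. No test was made of the members against the others.

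Scaling moves the median of all peaks. The log2 fold change over all tested peaks had a median of 1.05 as deposited, 1.29 with every library rescaled to the same total, 0.66 in DESeq2, 0.47 in edgeR and 0.16 after quantile normalization. Set against that median, the median of the members was higher by 1.12 as deposited, 1.23, 1.40, 1.38 and 1.25 in the same order. It was higher by 0.64 when thinned to the shallowest library, by 0.76 at a pseudocount of 5 and by 2.39 at a mean of at least 20, where 4 members were tested, and it was −0.29 against all among peaks in both lists, where 1 was. The split of all tested peaks moved as well: 1607 were higher and 563 lower as deposited, 873 higher and 802 lower after quantile normalization, 1093 higher and 894 lower in edgeR, and 1130 higher and 771 lower in DESeq2. The members were 6 higher and 0 lower after quantile normalization. All tested peaks include those called in WT, while 13 of the 14 tested members were in the G12D list only. Within that list the medians as deposited were 2.37 for the members and 1.67 for all tested annotated peaks. The other scalings were not compared within that list.

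**Figure D3:**
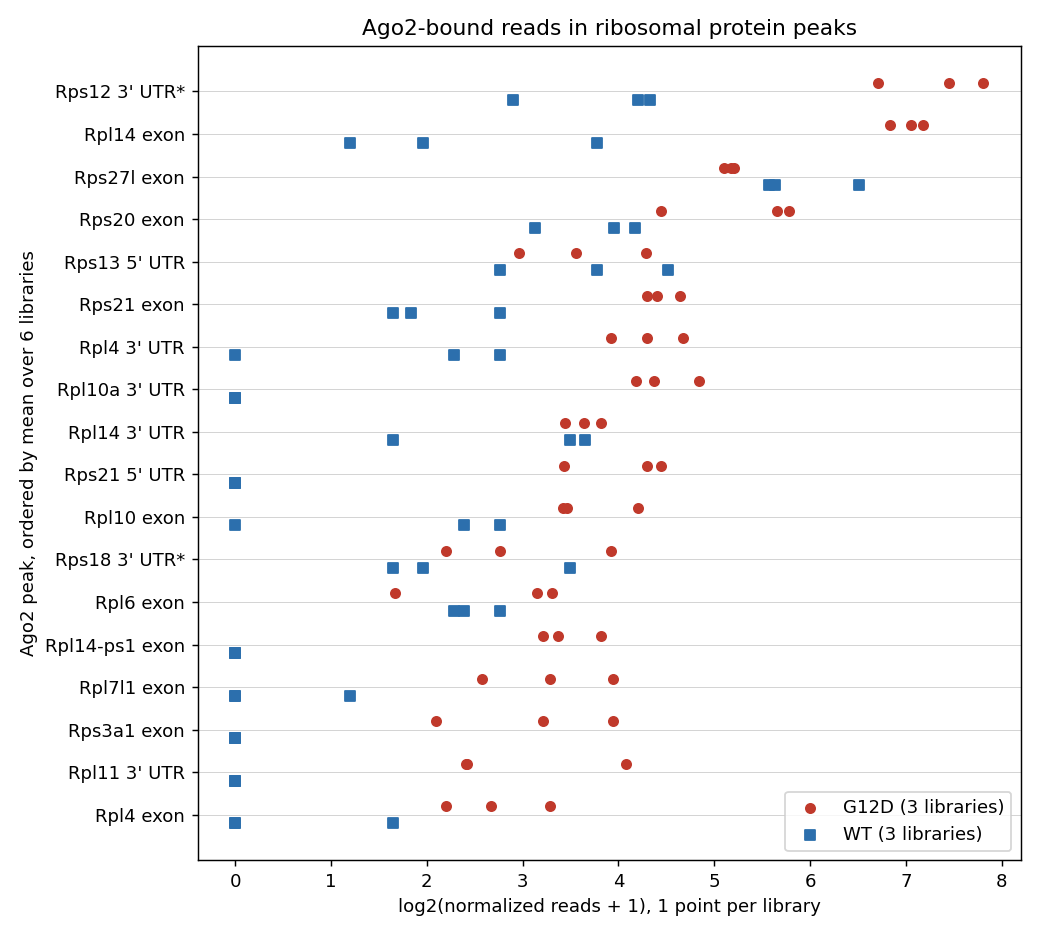
Ago2-bound reads in each of the 18 peaks (rows, ordered by mean) as log2(normalized reads + 1) on the x axis, with G12D libraries as circles and WT libraries as squares, 1 point per library. The Rps12 and Rpl14 exon peaks show the widest gap between genotypes among the well-covered peaks, Rps27l is the only peak with all G12D libraries below all WT libraries, and 5 peaks have every WT library at 0.

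**Figure D4:**
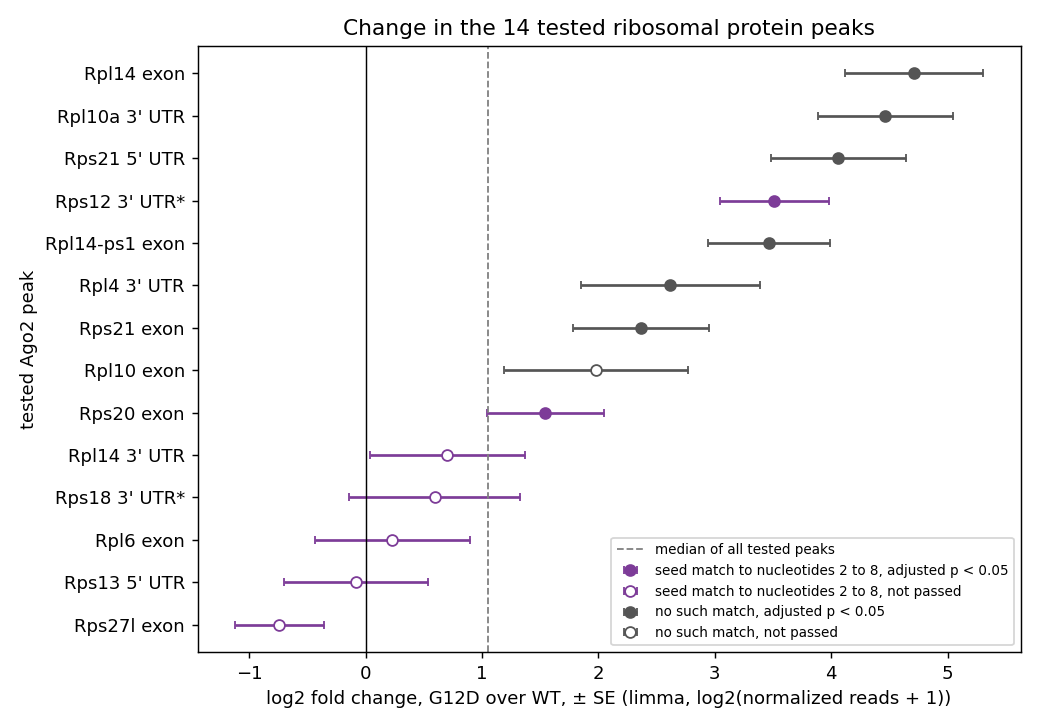
Log2 fold change of G12D over WT (x axis, ± SE from limma) for the 14 tested peaks (rows); filled points passed an adjusted p of 0.05, colour marks whether a seed match to bases 2 to 8 is listed, and the dashed line is the median of all tested peaks, 1.05. The peaks without such a match lie mostly at the top, with a median of 3.47, and those with one have a median of 0.59. Of the 7 without a match 3 had 0 reads in WT, and the difference was not tested. Over annotated peaks in the G12D list only, the medians were 1.81 without a match and 1.57 with one.

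Among small subunit proteins, Rps12 had the most Ago2-bound reads per base of peak of all members. Its peak at chr10:23786498-23786547 on the minus strand had 104, 174 and 223 normalized reads in G12D libraries, against 19.1, 17.4 and 6.44 in WT libraries. Every G12D library was far above every WT library. It rose by 3.51 ± 0.47 on the log2 scale, 11.4-fold (limma, adjusted p = 0.000291), from 1247 reads in G12D and 20 in WT. When thinned to the shallowest library the log2 fold change was 4.94. Of its 50 bases 46 overlap a snoRNA gene of RefSeq, LOC115487513, and the authors' exon column names Gm23130 there, so its reads cannot be told apart between the Rps12 transcript and the snoRNA. Its listed matches were to miR-141-3p at bases 2 to 8 and weaker ones to miR-26-5p and miR-224-5p.

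Rps21, a protein of the small subunit, had a pair of peaks, and both rose. The exon peak at chr2:180257984-180258059 had 24.0, 20.2 and 18.7 normalized reads in G12D libraries, against 2.12, 5.80 and 2.58 in WT libraries. It rose by 2.37 ± 0.58 on the log2 scale, 5.16-fold (limma, adjusted p = 0.00616). Its 5′ UTR peak at chr2:180257624-180257682 had 9.82, 20.8 and 18.7 normalized reads in G12D libraries and 0 in every WT library. In both peaks the genotypes did not overlap. When 3 counts are taken as the floor for the WT group as a whole, the 5′ UTR peak was at least 10.1-fold higher in G12D (136 reads; limma, adjusted p = 0.000359). It begins 12 bases past the Mir3091 hairpin, at chr2:180257536-180257611.

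Rps20, a small subunit protein whose human gene is mutated in some families with inherited colorectal cancer, rose less firmly. Its exon peak at chr4:3834514-3834567 had 20.7, 53.8 and 49.6 normalized reads in G12D libraries, against 16.98, 14.5 and 7.73 in WT libraries. The genotypes did not overlap, but G12D library 1 was close to WT library 1. It rose by 1.54 ± 0.50 on the log2 scale, 2.91-fold (limma, adjusted p = 0.0249). The call was lost without G12D library 2 (adjusted p = 0.127), without G12D library 3 (0.117), without WT library 3 (0.0738), without both libraries numbered 2 (0.120), in edgeR (0.0659) and in DESeq2 (0.0510). It was also lost after quantile normalization (0.0677) and with all libraries thinned to the depth of the shallowest (0.0518).

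Rps13, the small subunit protein with the let-7 match shown above, had overlapping values in the genotypes. Its 5′ UTR peak at chr7:116334108-116334161 had 18.5, 6.81 and 10.8 normalized reads in G12D libraries, against 12.7, 5.80 and 21.9 in WT libraries. WT held both the highest and the lowest library, and the difference of −0.08 ± 0.62 on the log2 scale did not pass (limma, adjusted p = 0.914). The sign turned when libraries were rescaled to the same total, without G12D library 2 and without WT library 3.

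The peak labelled Rps18 did not pass either. It had 14.2, 5.78 and 3.59 normalized reads in G12D libraries, against 2.12, 2.90 and 10.3 in WT libraries, and the genotypes overlapped. The change was 0.59 ± 0.74 on the log2 scale (limma, adjusted p = 0.514), and it was negative after quantile normalization and in edgeR. The peak, at chr17:33950289-33950349, lies 1649 bases past the end of Rps18 in RefSeq and wholly within B3galt4 on the same strand, a gene for a galactosyltransferase, which the authors' exon column names. It carries matches to bases 2 to 8 of miR-29-3p and miR-194-5p.

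Rps3a1, also of the small subunit, was too low to test. Its exon peak had 3.27, 8.25 and 14.4 normalized reads in G12D libraries and 0 in every WT library, so that it was at least 4.67-fold higher in G12D at the same floor.

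Among large subunit proteins, Rpl14 carried the largest fold with reads in both genotypes. Its exon peak at chr9:120572092-120572142 had 113, 144 and 132 normalized reads in G12D libraries, against 12.7, 2.90 and 1.29 in WT libraries. The lowest G12D library was well above the highest WT library. It rose by 4.71 ± 0.59 on the log2 scale, 26.2-fold (limma, adjusted p = 0.000258), with 984 reads in G12D and 8 in WT. Of the 8 WT reads 6 were in WT library 1, and without that library the log2 fold change was 5.44, or 43.6-fold. At a pseudocount of 5 it was 3.81. No miRNA match was listed for it.

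The other peak of Rpl14, in the 3′ UTR, did not pass the test. It was at chr9:120574122-120574233, 112 bases and the widest member, and had 13.1, 9.90 and 11.5 normalized reads in G12D libraries, against 2.12, 11.6 and 10.3 in WT libraries. WT library 1 stood below the rest and the other WT libraries were within the range of G12D. The change was 0.70 ± 0.66 on the log2 scale and did not pass (limma, adjusted p = 0.386), and it was slightly negative in edgeR and after quantile normalization. This peak carries an 8-base match and further matches to the family of miR-16-5p. The difference between the changes of the pair of peaks was not tested.

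Rpl4, which lines the exit tunnel of the ribosome, had a 3′ UTR peak that rose. It had 14.2, 24.6 and 18.7 normalized reads in G12D libraries, against 0, 5.80 and 3.87 in WT libraries, with no overlap. It rose by 2.62 ± 0.77 on the log2 scale, 6.13-fold (limma, adjusted p = 0.0152). Without WT library 1, which had no reads there, the log2 fold change was 1.78, or 3.42-fold. The call was lost without G12D library 2 (adjusted p = 0.0833), without G12D library 3 (0.0713) and when thinned to the shallowest library (0.0846). An exon peak of Rpl4, at chr9:64175666-64175724, was not tested: it had 39 reads in G12D and 1 in WT, a ratio of 8.68 with a 95% counting interval of 1.47 to 351.

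Rpl10a, which forms the mobile L1 stalk, rose in G12D and had no reads in WT. Its 3′ UTR peak at chr17:28330827-28330879 had 19.6, 27.6 and 17.2 normalized reads in G12D libraries and 0 in every WT library. It was at least 13.1-fold higher in G12D at the floor of 3 counts (limma, adjusted p = 0.000274), from 176 reads.

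Rpl10, which joins the large subunit late in its assembly, came close to the threshold. Its exon peak at chrX:74271659-74271723 had 17.4, 9.70 and 10.1 normalized reads in G12D libraries, against 4.25, 5.80 and 0 in WT libraries. The genotypes did not overlap, yet the change of 1.98 ± 0.79 on the log2 scale did not pass (limma, adjusted p = 0.0550). It passed with the replicate number as a block (adjusted p = 0.0432), with libraries rescaled to the same total (0.0371), at a pseudocount of 5 (0.0275), without WT library 1 (0.0453) and without WT library 2 (0.0176).

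Rpl6 and Rpl11 complete the large subunit. The exon peak of Rpl6 had 2.18, 8.87 and 7.90 normalized reads in G12D libraries, against 4.25, 5.80 and 3.87 in WT libraries. These overlapped, and the change of 0.23 ± 0.67 on the log2 scale did not pass (limma, adjusted p = 0.785) and was negative after quantile normalization. The 3′ UTR peak of Rpl11, a protein that binds Mdm2 when ribosome assembly fails, was not tested: it had 4.36, 15.9 and 4.31 normalized reads in G12D libraries and 0 in every WT library, at least 6.45-fold higher in G12D.

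Neither paralog was called by limma. Rps27l, a paralog of Rps27 that p53 induces, was the only member with all G12D libraries below all WT libraries. Its exon peak at chr9:66946831-66946881 had 36.0, 33.4 and 35.2 normalized reads in G12D libraries, against 48.8, 46.4 and 90.2 in WT libraries. The difference of −0.74 ± 0.38 on the log2 scale did not pass in limma (adjusted p = 0.123), and it passed as lower in edgeR (−1.39, adjusted p = 0.00801) and in DESeq2 (−1.19, adjusted p = 0.0224). It carries an 8-base match to miR-194-5p. Rpl7l1, a paralog of Rpl7, was not tested: it had 8.72, 4.95 and 14.4 normalized reads in G12D libraries, against 0, 0 and 1.29 in WT libraries, a ratio of 11.6 with a counting interval of 1.99 to 466.

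The pseudogene Rpl14-ps1, at chr7:45324960-45325016 within the span of Trpm4, had 13.1, 8.25 and 9.34 normalized reads in G12D libraries and 0 in every WT library. It was at least 4.82-fold higher in G12D (limma, adjusted p = 0.000466), and the call was lost after quantile normalization (adjusted p = 0.0644). With a mean of 5.11 normalized reads it passed the filter of 5 only through G12D, and it was in the G12D list only. Its reads were 11.5%, 5.75% and 7.07% of those of the Rpl14 exon peak in the G12D libraries. How reads shared with the parent gene were counted is not given in the sources used here, so this peak is uncertain as a source of its own.

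Summed over the peaks of each gene label, 7 of 12 tested labels rose and 0 fell, where 50.0% of 2245 tested genes were called, 35.8% as higher and 14.2% as lower. The 12 include the pseudogene Rpl14-ps1, Rps12 with its snoRNA overlap and the label Rps18. At an unadjusted p under 0.05 limma had 8 higher and 0 lower, and the share of all tested genes at that p was not counted. After adjustment edgeR and DESeq2 each called 7 higher and 1 lower, Rps27l. Of all 2245 genes edgeR called 582 higher and 498 lower, and DESeq2 called 569 higher and 476 lower. The median log2 fold change of the 12 labels was 2.22, against 0.81 over all genes tested. Rpl14 summed to 127, 153 and 144 normalized reads in G12D libraries, against 14.9, 14.5 and 11.6 in WT libraries, which is even within each genotype. It rose by 3.28 ± 0.32 on the log2 scale (limma, adjusted p = 9.60e-05). Rps21 summed to 33.8, 41.1 and 37.3 in G12D libraries, against 2.12, 5.80 and 2.58 in WT libraries, and rose by 3.18 ± 0.53 (limma, adjusted p = 0.000817). Rpl4 summed to 22.9, 29.9 and 22.3 in G12D libraries, against 2.12, 5.80 and 3.87 in WT libraries, and rose by 2.46 ± 0.55 (limma, adjusted p = 0.00376). The genes Rps12, Rps20, Rpl10a and Rpl14-ps1 with a single peak also rose. Rpl10 missed the threshold (limma, adjusted p = 0.0504), and Rps27l, Rps13, Rps18 and Rpl6 did not pass.

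The authors' deposited table of peak changes called 12 of the 18 higher and 0 lower, where it called 37.9% of its 5504 peaks higher and 11.6% lower. All 8 peaks that rose in limma were among the 12. The other 4 in the authors' deposited table were Rpl10 (log2 fold change 2.14, adjusted p = 0.0464), Rpl11 (4.55, 0.00687), Rpl7l1 (3.69, 0.0188) and Rps3a1 (4.58, 0.00536). For Rps27l the authors' deposited table gave −0.86 with an adjusted p of 0.0943.

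Of the 8 peaks that rose, 6 had no listed match to bases 2 to 8 of a family. Among the 7 members with a match to bases 2 to 8, all tested, 2 rose, Rps12 and Rps20, and the median log2 fold change was 0.59. Among the 11 without one, 7 were tested and 6 of these rose, with a median of 3.47. In all 7 every G12D library lay above every WT library. That held for 46.3% of all tested annotated peaks without a match, and for 60.8% of those in the G12D list only. Over all annotated peaks the shares that rose lay closer together, at 942 of 2672 with a match (35.3%, median 1.00) and 643 of 1681 without (38.3%, median 1.20). In the G12D list only, 866 of 1934 annotated peaks with a match rose (44.8%) and 604 of 1203 without (50.2%). Of the members in that list 2 of 6 with a match rose and 6 of 7 without. The difference among the members was not tested, and 3 of the 7 tested members without a match had 0 reads in WT.

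The miRNAs whose seeds these peaks match were themselves in Ago2 in both genotypes. Of 25 miRNAs in the 7 families 23 were tested, and in limma 2 rose and 0 fell in G12D. Of all 254 tested miRNAs 15.7% were called, 9.06% as higher and 6.69% as lower. At an unadjusted p under 0.05 limma had 3 of the 23 higher and 0 lower, and the share of all tested miRNAs at that p was not counted. The median log2 fold change of the 23 was 0.30, against 0.11 over all tested miRNAs. The family of miR-200c-3p, known for holding cells in the epithelial state, summed to 58291 ± 4888 normalized reads in G12D and 46201 ± 13175 in WT (SD, n = 3 each). miR-194-5p, an intestinal epithelial miRNA, had 22875, 33180 and 30335 normalized reads in G12D libraries, against 19625, 24797 and 15668 in WT libraries. G12D library 1 lay below WT library 2 and the other G12D libraries lay above all WT libraries, and it rose by 0.53 ± 0.18 on the log2 scale (limma, adjusted p = 0.0339). miR-200b-3p rose by 0.56 ± 0.19 (limma, adjusted p = 0.0364). Both calls were lost with libraries rescaled to the same total, after quantile normalization, without the variance trend and without a filter, and likewise without G12D library 2, G12D library 3 or WT library 3.

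**Figure D5:**
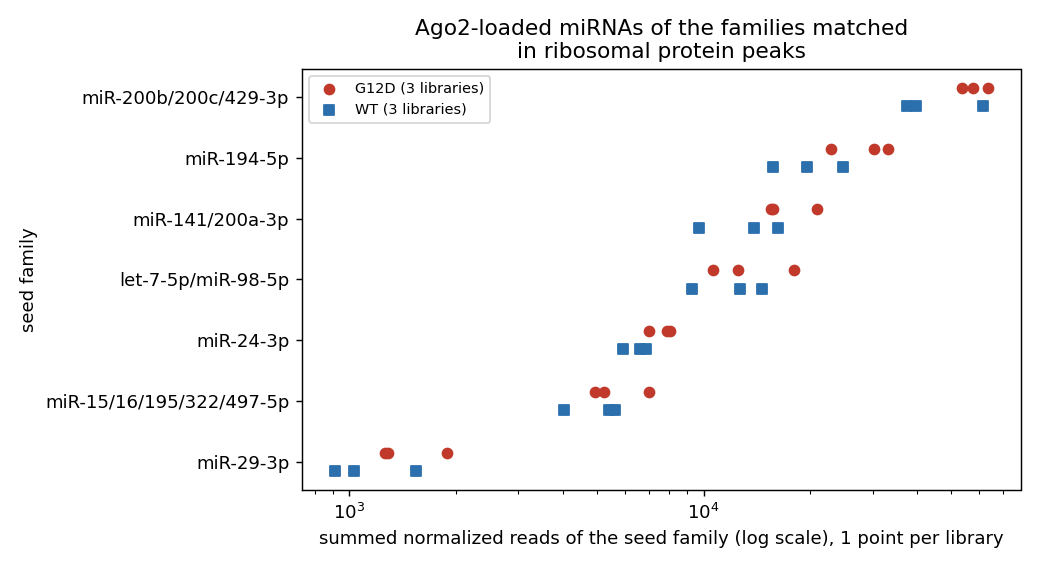
Summed normalized reads (x axis, log scale) of the 7 miRNA families whose seeds are matched in ribosomal protein peaks (rows), with G12D libraries as circles and WT libraries as squares. The families span from about 1159 to 58291 normalized reads in their group means, and the genotypes overlap in every family but that of miR-24-3p.

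The other families are given by their sums. The family of miR-200a-3p summed to 17374 ± 3072 normalized reads in G12D and 13266 ± 3287 in WT, and let-7 to 13715 ± 3849 in G12D and 12185 ± 2703 in WT (SD, n = 3 each). miR-24-3p had 7633 ± 555 in G12D and 6457 ± 500 in WT, the family of miR-16-5p 5734 ± 1110 in G12D and 5019 ± 847 in WT, and the miR-29 family 1478 ± 357 in G12D and 1159 ± 335 in WT. None of the miRNAs of these families passed the test. miR-26a-5p, whose seed has a shorter match in the Rps12 and Rpl11 peaks, had 18978 ± 1411 normalized reads in G12D and 12435 ± 1244 in WT and rose by 0.61 ± 0.17 on the log2 scale (limma, adjusted p = 0.0143). That call was lost without G12D library 2 (adjusted p = 0.0801), without WT library 3 (0.0731), without the variance trend (0.174), with the same total per library (0.206) and after quantile normalization (0.835). The other named miRNAs with only shorter matches, miR-103-3p (limma, adjusted p = 0.144), miR-183-5p (0.543) and miR-141-5p (0.990), did not pass. The plot of family sums by library shows the overlap of the genotypes.

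Other genes of the translation machinery were counted beside the ribosomal proteins. Of 26 elongation factors and other mRNAs of the TOP class, 3 had a peak, and 3 of their 4 peaks rose, with a median log2 fold change of 2.49, where 36.2% of all tested peaks rose and the median was 1.05. Eef1a1, the elongation factor that brings tRNA to the ribosome, summed to 56.7, 85.8 and 76.1 normalized reads in G12D libraries, against 0, 8.69 and 9.02 in WT libraries, and rose by 3.99 ± 0.79 on the log2 scale (limma, adjusted p = 0.00211). Eef1b2, which recharges it with GTP, rose by 2.23 ± 0.75 (limma, adjusted p = 0.0284). Eif4b, a helper of the initiation helicase, had 19.6, 17.5 and 36.6 in G12D libraries, against 44.6, 37.7 and 64.4 in WT libraries, which did not pass (limma, adjusted p = 0.0621).

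Genes with initiation factor names and mitochondrial ribosomal proteins gave other counts. The first list goes by names that begin with Eif, and Eif4ebp2 and Eif2ak1 are among its genes. It shares Eif4b with the TOP class and Eif6 with the ribosome biogenesis genes. Of its 56 names 15 had a peak, and of 20 tested peaks 2 rose and 2 fell, with a median log2 fold change of 0.01. Of all tested peaks 36.2% rose and 12.7% fell. The same background holds for the limma peak counts of the 2 lists that follow. By gene sums Eif4g2 rose (1.61, limma, adjusted p = 0.0169) and Eif3a rose (2.57, adjusted p = 0.0117), while Eif4g1, the scaffold of the cap-binding complex, fell (−1.85, adjusted p = 0.00272) and Eif4a1, its helicase, fell (−3.18, adjusted p = 0.00433). Of 78 mitochondrial ribosomal proteins, which build the ribosome of the mitochondrion, 5 had a peak and 0 of these passed in either direction in limma, with a median of 0.16. By gene sums, at an unadjusted p under 0.05 limma had 1 of these higher and 1 lower. The share of all tested genes at that p was not counted. After adjustment edgeR and DESeq2 each called 2 of these lower. Of all 2245 tested gene sums edgeR called 582 higher and 498 lower, and DESeq2 called 569 higher and 476 lower. Of 34 ribosome biogenesis genes 4 had a peak, and 2 of their 5 peaks rose. Nop56, a core protein of the snoRNA particles, rose by 2.96 ± 0.63 on the log2 scale (limma, adjusted p = 0.00305). No list was tested against another.

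Summed reads of cell type markers differed between the genotypes in these libraries. Peaks were present on 20 of 23 colonocyte markers and 6 of 9 goblet cell markers, and on 0 of 14 smooth muscle and stromal and 0 of 12 blood and endothelial markers, so epithelial markers were the ones detected. The summed normalized reads of goblet cell markers were 3733 to 5137 in G12D libraries and 947 to 1446 in WT libraries. Those of colonocyte markers were 8438 to 9527 in G12D libraries and 12752 to 13841 in WT libraries. The sum and the counts of colonocyte markers differ in sign. Of 138 tested colonocyte peaks 64 rose and 16 fell, with a median log2 fold change of 1.38. Of 20 colonocyte gene sums 8 rose and 3 fell, with a median of 0.56. Of 34 tested goblet cell peaks 20 rose and 0 fell (median 2.21), and of 6 gene sums 3 rose and 0 fell (median 0.86). Of all tested peaks 36.2% rose and 12.7% fell (median 1.05), and of all tested gene sums 35.8% rose and 14.2% fell (median 0.81). The part of these differences in the values of the ribosomal protein peaks was not tested.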

How the data were processed

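Reads bound by Ago2 were measured in 3 G12D and 3 WT pulldown mRNA libraries and in 3 and 3 miRNA libraries. STAR 2.5.2b, DESeq2 and the builds mm10 and GRCm38 are named in the submitters' processing notes; the peak caller, read counting and any pooling of libraries are steps not given in the sources used here. The deposited values are a normalized signal, reads per merged peak or miRNA divided by 1 factor per library, and 100.0% of the values above 0 were whole multiples of 1 read within 0.01 of a read. The deposited differential table gives the authors' log2 fold changes and the authors' p-values with adjustment. The deposited genotype lists carry the authors' score per peak, which was not compared between lists, and the count in the deposited peak information table was not used for a comparison. Annotation, gene labels and seed matches are the authors', per the file headers.

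The test was limma 3.58.1 in R 4.3.3 on log2(normalized reads + 1), two-sided and with a trended variance, with Benjamini-Hochberg adjustment over all features averaging 5 or more normalized reads (peaks, gene sums) or 10 or more (miRNAs). On this scale the folds of low peaks are understated. It was tested on simulated data. Pulldown libraries held 54401 to 723937 reads in merged peaks and miRNA libraries 337788 to 535932 reads; 106 to 177 merged peaks were at 0 in G12D libraries and 1294 to 1854 in WT libraries. Ratios at 0 WT reads use a floor of 3 counts over the group, and intervals and floors cover counting error only. Library pairs within a group differed by more than sampling noise (chi-square per degree of freedom 3.68 to 10.9), so none was counted as a repeat.

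Alternatives were the pseudocount, the filter, the scaling, the variance trend, the replicate number as a block, each library left out, peaks in both genotype lists, and edgeR 4.0.16 and DESeq2 1.42.0 on the recovered reads; thinning to the shallowest library and leaving out both libraries numbered 2 were chosen after seeing the data. Peaks were named by rule: members past the threshold with no overlap between genotypes, the 10 with the highest mean, the highest of each subunit group, those in a 5′ UTR and those with abundant matched families; the remaining members were added so that every member is described. Members and lists were chosen with earlier results of these data known. Sequences and gene positions are from RefSeq, GRCm38.p6. A further gene list entry and a further peak are not reported here.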

Additional observations from a re-analysis of the deposited data

How the results depend on the processing

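Of the 8 peaks that rose, 0 changed sign under any alternative, and 5 (Rps12, the Rpl14 exon peak, Rpl10a and both Rps21 peaks) passed the threshold under every alternative that tested them. Of these, Rpl10a and the Rps21 5′ UTR peak had 0 reads in WT and the Rps21 exon peak had 5. Those peaks passed the filter on low values through G12D and were not tested at a mean of at least 20. None of the 5 was tested among peaks in both lists. The count of 8 was 3 of 4 tested at a mean of at least 20, 5 of 13 when thinned to the shallowest library, and 0 of 1 among peaks in both genotype lists; fewer members were tested in each. It was 12 of 18 without a filter and 6 after quantile normalization. Of all tested peaks 32.3% rose at a mean of at least 20, 29.3% when thinned and 12.7% among peaks in both lists. The share was 44.9% without a filter and 19.7% after quantile normalization, against 36.2% as deposited. Leaving out each library gave 5 to 11, with 5 of 12 both without G12D library 2 and without G12D library 3. Of all tested peaks 21.2% and 21.3% rose without these libraries, and up to 38.6% with another left out. Gene sums gave 4 at a mean of at least 20, against 7, and 5 to 10 with a library left out. Of all tested genes 33.9% rose at that mean, against 35.8% as deposited, and 23.5% to 37.2% with a library left out.

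The count of 2 matched miRNAs was 0 without a filter, with the same total per library, after quantile normalization and without the variance trend. Of all tested miRNAs 2.61%, 2.36%, 7.48% and 3.15% rose in the same order, against 9.06% as deposited. With a library left out the count was 0 to 4. It was 4 without WT library 1, 1 without WT library 2, and 0 without G12D library 2, G12D library 3 or WT library 3. The share of all tested miRNAs with a library left out was 4.35% to 10.3%. The cause was not tested.

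Signs turned for values that had not passed. Rps13 was 0.0992 (gene sum 0.0547) with the same total, 0.24 without G12D library 2 and 0.33 without WT library 3, and ran from −0.55 to 0.33 with a library left out. After quantile normalization the Rpl14 3′ UTR peak was −0.24, the peak labelled Rps18 −0.82 (gene sum −0.67) and Rpl6 −1.16 (gene sum −1.14). In edgeR the Rpl14 3′ UTR peak was −0.0493 and the peak labelled Rps18 −0.21 (gene sum −0.0860). The members' median log2 fold change was −0.74 in both lists, where only Rps27l is a member, and 1.42 to 2.85 otherwise. The share of reads, 0.260 percentage points higher in G12D, was −0.0072 points in both lists, and 0.233 to 0.290 with a library left out.

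The replicate numbers did not pair the libraries: deviations of libraries with the same number correlated at 0.0415, −0.0357 and −0.0076. With the number as a block, 9 peaks, 8 gene sums and 1 miRNA rose. Of all tested, 36.7% of peaks, 35.6% of genes and 5.51% of miRNAs then rose. Over all WT libraries 7 of the 18 peaks had at most 3 reads, which limits the precision of their folds.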

Other observations

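Some peaks carry a label that joins a ribosomal protein gene to another gene and lie outside the naming rule; those given here were chosen after their values were seen. A snoRNA gene of RefSeq was overlapped by 1 of the 18 ribosomal protein peaks and by 15 of 5554 merged peaks (0.270%). The peak labelled Gm24044 and Rpsa, at chr9:120128871-120128926 and within a snoRNA gene, had 2.18, 5.78 and 2.87 normalized reads in G12D libraries, against 21.2, 11.6 and 32.2 in WT libraries. It fell by 2.27 on the log2 scale (SE 0.62; limma, adjusted p = 0.0110), with no overlap between the genotypes, and was in the WT list only. The peak labelled Rplp0 and Gcn1l1 had 21.8, 20.4 and 25.9 in G12D libraries, against 14.9, 2.90 and 2.58 in WT libraries, and rose by 1.96 ± 0.65 (limma, adjusted p = 0.0259). The peak labelled Snord16a and Rpl4 was not tested.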
